A study of Mus musculus with 4 samples.

Results

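Cirbp and Rbm3 code for the cold-inducible RNA-binding proteins of the mouse, and they were taken as the 2 genes so named among the 39179 genes measured in each library of a sleep deprivation study of brain cortex. Their rows were picked by gene name, but the genes were chosen with earlier results of these data known. Both were among the 13550 genes that passed the filter on low values, which required 50 normalised counts on average.

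CIRBP and RBM3 are small glycine-rich proteins with a single RNA recognition motif. Their transcripts accumulate under mild cooling and decline with warming, which makes them the counterpart of the heat shock genes. CIRBP binds and stabilises transcripts, clock transcripts among them, and moves into stress granules. RBM3 promotes translation and is known for preserving synapses in the cooled mouse brain. In the rodent cortex, wakefulness raises brain temperature, and Cirbp is known as a transcript that falls during sleep deprivation.

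BK-deficient mice (KO) and their wildtype littermates (WT) had the F1 background C57Bl6/J x Sv129. The BK channel is a calcium- and voltage-gated potassium channel whose pore is encoded by Kcnma1. Mice of each genotype were kept awake by gentle handling for 4 h from light onset (SD) or left undisturbed at baseline (BL), and cortex was taken at ZT4, 4 h after light onset. Total RNA of 4 animals was pooled into 1 library per group, so that WT BL, WT SD, KO BL and KO SD had no replicate, and no difference between 2 libraries was tested here. The labels give neither the ages of the mice nor any brain or body temperature. They do not say which part of the channel gene was removed.

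Estimated reads per library ran from 27.7 M to 42.0 M. Kcnma1 did not separate the genotypes. It had 614 and 177 normalised counts at baseline and after sleep deprivation in wildtype pools, and 447 and 491 in knockout pools, so KO and WT are used as the labels give them. WT SD stood apart from the other libraries, with correlations across genes of 0.877 to 0.911 against 0.956 to 0.972 among the other 3. Results that rest on WT SD are the wildtype sleep deprivation pair, with its Rbm3 to Cirbp ratio, and the comparison of genotypes after sleep deprivation. The difference of responses, the additive fit, the count of genes lower in both pairs and the ranking by likeness rest on it too. At deposited values the knockout pair and the baseline comparison do not use it. Their values corrected for trends, given below, do, since each library was taken minus the mean of all, except where WT SD was left out. Cortical markers were present, with the 6 excitatory neuron markers (7 rows of the tables) summing to 40486 to 66560 normalised counts, and the summed cerebellar markers reached at most 152. No marker of the cell types examined was at 0 in every library. Red blood cell markers summed to 25351 to 28916 in 3 libraries and to 8183 in KO SD, and other lists differed within a pair. Oligodendrocyte markers summed to 30680 in WT BL and 61834 in WT SD. Astrocyte markers summed to 29327 in KO BL and 47915 in KO SD, and those of choroid plexus and ependyma to 256.6 and 728. Mitochondrial transcripts made up 19.4% of counts in KO SD against 12.7% to 13.5% in the others.

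Cirbp (ENSMUSG00000045193) lies on the plus strand at chr10:80165985-80172786 of mm10, and its 7 annotated transcripts include 2 coding forms, 1 form marked for nonsense-mediated decay and 4 with retained introns. No other gene overlaps its exons. The stretch before the start of its 1321 bp principal coding transcript is shown because a cold-responsive element known from the mouse gene has the letters TCCCCGCC. The sequence is from RefSeq, on GRCm38.p6, plus strand, chr10:80167589-80167777, and ends 1 base before that transcript starts at position 80167778. It lies inside the gene, since another coding transcript starts further upstream. Capitals mark the match:

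Cirbp: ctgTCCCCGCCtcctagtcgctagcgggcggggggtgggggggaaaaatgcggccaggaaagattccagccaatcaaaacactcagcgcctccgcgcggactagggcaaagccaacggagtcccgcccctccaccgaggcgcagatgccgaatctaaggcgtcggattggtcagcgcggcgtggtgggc

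The element had 1 match on the plus strand, at positions 80167592 to 80167599, and 0 on the minus strand of these 189 bases. On either strand, 1768 of 32851 RefSeq windows of 300 bases, 5.38%, held the same letters, and 1 of the 2 windows listed for Cirbp did. The match is a description of the letters and says nothing on binding in these animals. Rbm3 (ENSMUSG00000031167) lies on the minus strand at chrX:8138975-8145880 with 11 annotated transcripts, 6 of them coding, and no sequence is shown for it. Its exons overlap the antisense gene Rbm3os, whose values, 3.51 to 13.8 normalised counts, came to 0.123% to 0.426% of those of Rbm3. Strand handling is not given in the sources used here, so that reads of this sense and antisense pair cannot be told apart.

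The levels of both genes were first set side by side in the 4 libraries. In wildtype pools Cirbp had 1614 normalised counts at baseline (95% counting interval 1531 to 1700) and 1573 after sleep deprivation (1492 to 1657). In knockout pools it had 2118 at baseline (2018 to 2221) and 1068 after sleep deprivation (1009 to 1130). KO BL was highest and KO SD lowest, and the intervals of WT BL and WT SD between them overlapped. Rbm3 had 3092 normalised counts at wildtype baseline (2976 to 3211) and 4244 after wildtype sleep deprivation (4111 to 4381). The knockout values were 3231 at baseline (3107 to 3358) and 2844 after sleep deprivation (2747 to 2944). WT SD was highest and KO SD lowest, with the overlapping baseline libraries between them. These intervals cover counting error alone. What separates one pool of animals from another of the same kind was not measured.

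The genes can be compared with each other only per length. Per kilobase of the deposited transcript width, Cirbp had 2111 and 2057 normalised counts in the wildtype pools (BL, then SD) and 2770 and 1397 in the knockout pools. The per-kilobase values of Rbm3 were 2215 and 3041 in wildtype and 2315 and 2038 in knockout. Both were among the more abundant transcripts, with Cirbp per kilobase above 80.6% to 90.3% of the genes compared and Rbm3 above 86.7% to 89.1%. The deposited width of Cirbp, 765 bp, is the mean over its 7 annotated transcripts, several of them short fragments, and the comparison per kilobase inherits that choice. For Rbm3 the width is 1396 bp and its longest principal transcript 2792 bp.

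**Figure D1:**
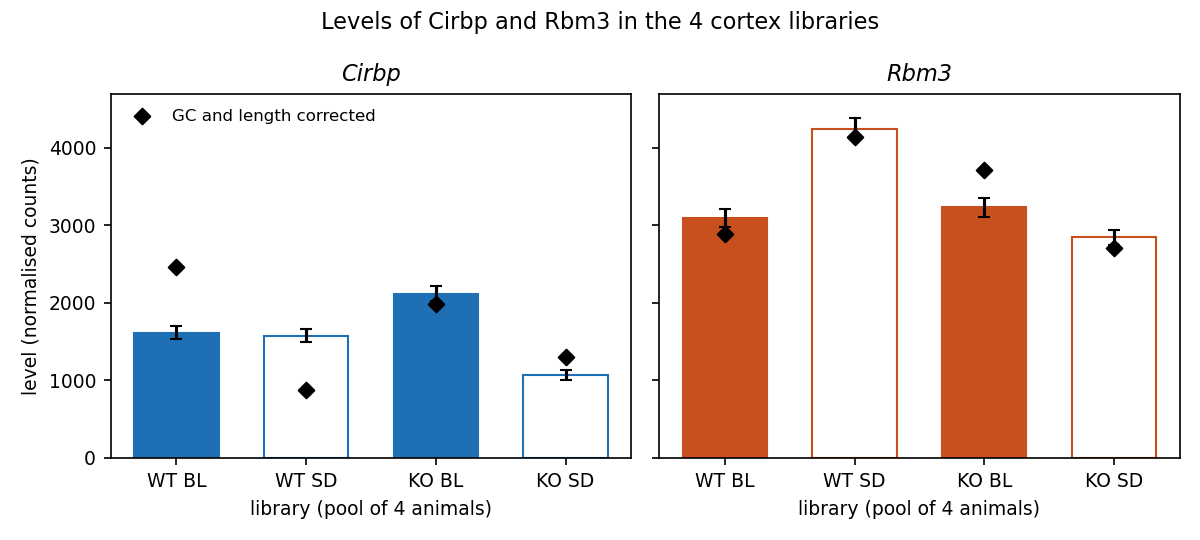
Levels of Cirbp and Rbm3 (normalised counts) in the 4 libraries, each a pool of 4 animals: filled bars are baseline, open bars sleep deprivation, error bars 95% counting intervals, and black diamonds the level after removal of GC and length trends. The Cirbp bars run from 1068 in KO SD to 2118 in KO BL, while the diamonds put both sleep-deprived pools, at 879 and 1307, under both baseline pools, at 2460 and 1988.

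The first question was what sleep deprivation did to each transcript within a genotype. In the wildtype pair Cirbp did not differ beyond counting error, with a log2 difference of SD over BL of -0.037 (95% counting interval -0.14 to 0.071). Rbm3 was higher in WT SD by 0.46 (0.39 to 0.53), a 1.37-fold difference, which was 0.033 when values were taken per length and scaled to equal totals. Neither reached 1.5-fold, which 24.5% of the genes compared exceeded upwards and 24.1% downwards in this pair. Scaling by total counts moved the median gene to -0.20 in this pair and -0.12 in the knockout pair, and Cirbp to -0.20 and Rbm3 to 0.29 here. It left 38.5% of the genes past 1.5-fold as higher in place of 50.5%, and 37.8% in place of 49.6% in the knockout pair. The difference of Cirbp equalled that of the median gene, -0.037, and 28.8% of genes were higher in WT SD by more than Rbm3 was.

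In the knockout pair both transcripts were lower after sleep deprivation. Cirbp stood at 1068 normalised counts against 2118, a log2 difference of -0.99 (-1.10 to -0.88), or 0.505 of the baseline value. Only 3.27% of genes were lower by more, and 16.4% were lower by at least 1.5-fold, against 16.2% that were higher by as much. Rbm3 differed by -0.18 (-0.26 to -0.11), within the middle of all genes, 40.4% of which were lower by more. KO SD was also the library with the low red blood cell sum and the high mitochondrial share, and like the other marker sums above their part in the differences of either pair was not tested. In pooled tissue, fewer cells of a type and less RNA per cell cannot be told apart.

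The comparisons of genotypes use the same 4 libraries as the pairs above. At baseline Cirbp was 0.39 higher on the log2 scale in KO (0.29 to 0.50) and Rbm3 0.063 higher (-0.015 to 0.14), where 16.4% of genes were higher and 10.7% lower by at least 1.5-fold. After sleep deprivation Cirbp was -0.56 (-0.67 to -0.45) and Rbm3 -0.58 (-0.65 to -0.51) in KO over WT, both close to but short of 1.5-fold, against 19.8% of genes higher and 21.1% lower. The response to sleep deprivation in KO minus that in WT was -0.95 for Cirbp (-1.10 to -0.80) and -0.64 for Rbm3 (-0.74 to -0.54). In the authors' deposited tables neither gene had a false discovery rate under 0.05 in any of the 4 comparisons, and the lowest, 0.825, was that of Rbm3 in the wildtype pair. Of the 39179 genes in those deposited tables, 911 in the wildtype pair, 41 in the knockout pair, 30 at baseline and 492 after sleep deprivation were under 0.05, so that most genes were not called either.

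These differences have to be read beside a trend that ran through the libraries. Across genes, the log2 difference of SD over BL had a Spearman correlation with GC content of 0.33 in the wildtype pair and -0.71 in the knockout pair, and with transcript width of -0.49 and 0.060. For KO over WT the correlation with GC content was 0.80 at baseline and -0.38 after sleep deprivation, and with width -0.22 and 0.51. The knockout pair and the baseline comparison, which share KO BL, thus had the largest correlations with GC content in absolute size. Each group is 1 library, so that a trend of the library and a trend of the condition cannot be told apart. Cirbp sits where such trends are steep, with a GC content of 57.8%, above 88.1% of the genes compared, and a width above only 5.27% of them. Rbm3 is less exposed, at 46.4% GC (above 26.2% of genes) and a width above 27.8%. Genes of the width of Cirbp, and those of its GC content, had medians above 0 in the wildtype pair, and Cirbp did not.

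**Figure D2:**
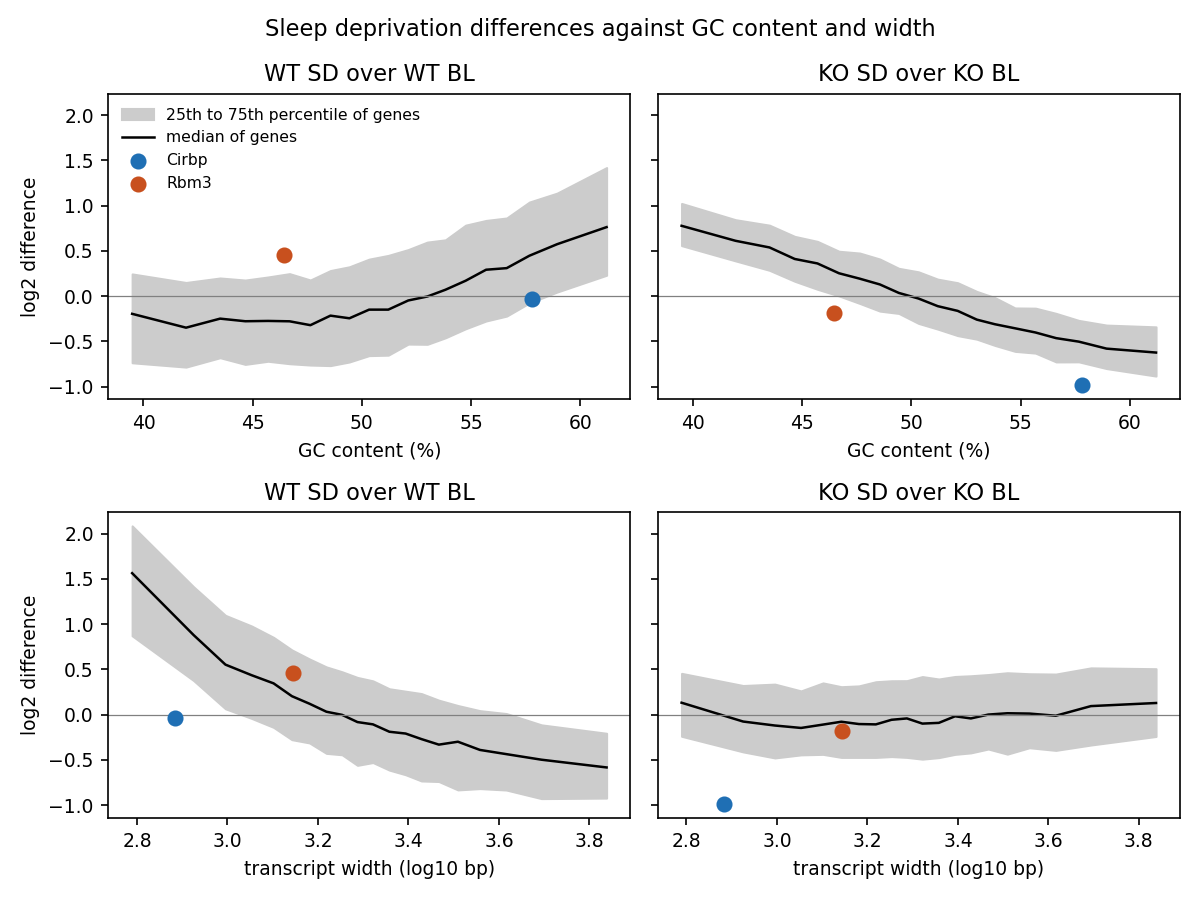
Log2 difference of SD over BL against GC content (upper panels, %) and transcript width (lower panels, log10 bp) in the wildtype (left) and knockout pair (right). The black line is the median and the grey band the 25th to 75th percentile of the genes in 20 bins of equal size. Cirbp lies under the band of genes of its width in both pairs, whereas Rbm3 lies above the GC band in the wildtype pair and under it in the knockout pair.

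With both trends fitted by loess and subtracted, Cirbp was lower after sleep deprivation in both genotypes. Its corrected level was 2460 normalised counts at baseline and 879 after sleep deprivation in wildtype, and 1988 and 1307 in knockout, so that both sleep-deprived pools were under both baseline pools. The corrected log2 difference was -1.48 in the wildtype pair (-1.59 to -1.38 by counting) and -0.61 in the knockout pair (-0.71 to -0.50). In the wildtype pair 4.04% of genes were lower by more, and in the knockout pair 95.0% lay above Cirbp. At corrected values 19% of genes were at least 1.5-fold lower and 17.5% higher in the wildtype pair, and 5.56% lower and 7.54% higher in the knockout pair. Cirbp was among the 384 genes, 2.83%, that were at least 1.5-fold lower in both pairs after the correction, and not among the 563, 4.15%, at deposited values.

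Rbm3 kept opposite signs in the pairs. Its corrected level was 2883 normalised counts at baseline and 4141 after sleep deprivation in wildtype, and 3719 and 2704 in knockout. That is 0.52 higher on the log2 scale in the wildtype pair (0.45 to 0.59) and -0.46 in the knockout pair (-0.53 to -0.38), neither past 1.5-fold. In the knockout pair 10.4% of genes were lower by more than Rbm3, compared with 40.4% before the correction.

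The correction reversed the genotype contrasts of Cirbp and kept the signs of those of Rbm3. For Cirbp the corrected KO over WT difference came to -0.31 at baseline and 0.57 after sleep deprivation, and its response in KO minus that in WT became 0.88 (0.73 to 1.03). For Rbm3 the corrected values were 0.37 at baseline, -0.61 after sleep deprivation and -0.98 (-1.09 to -0.88) for the difference of responses. At corrected values 3.15% of genes were at least 1.5-fold higher and 3.63% lower in KO at baseline, and 14.9% higher and 12.5% lower after sleep deprivation. Rbm3 was 1 of the genes lower after sleep deprivation, just past the threshold.

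How far Cirbp was lowered depended on the covariate. Correcting for GC alone gave -0.51 in the wildtype and -0.47 in the knockout pair, and for width alone -1.09 and -0.96. With GC alone Cirbp was thus short of 1.5-fold in both pairs, and its place among the genes lower in both was lost. With GC and length taken from the longest principal transcript of each gene in place of the deposited means, Cirbp was at -0.78 in both pairs and its response in KO minus that in WT was 0.00089. The 4 corrected versions compared thus put Cirbp lower in both pairs, by -1.48 to -0.51 and by -0.96 to -0.47. Over them the difference of responses of Cirbp ran from 0.00089 to 0.88, against -0.95 as deposited. Fitted without WT SD, the correction gave -0.60 for Cirbp and -0.47 for Rbm3 in the knockout pair. Rbm3 ran from 0.23 to 0.80 in the wildtype pair and from -0.79 to -0.11 in the knockout pair over the 4 versions compared that used all libraries.

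**Figure D3:**
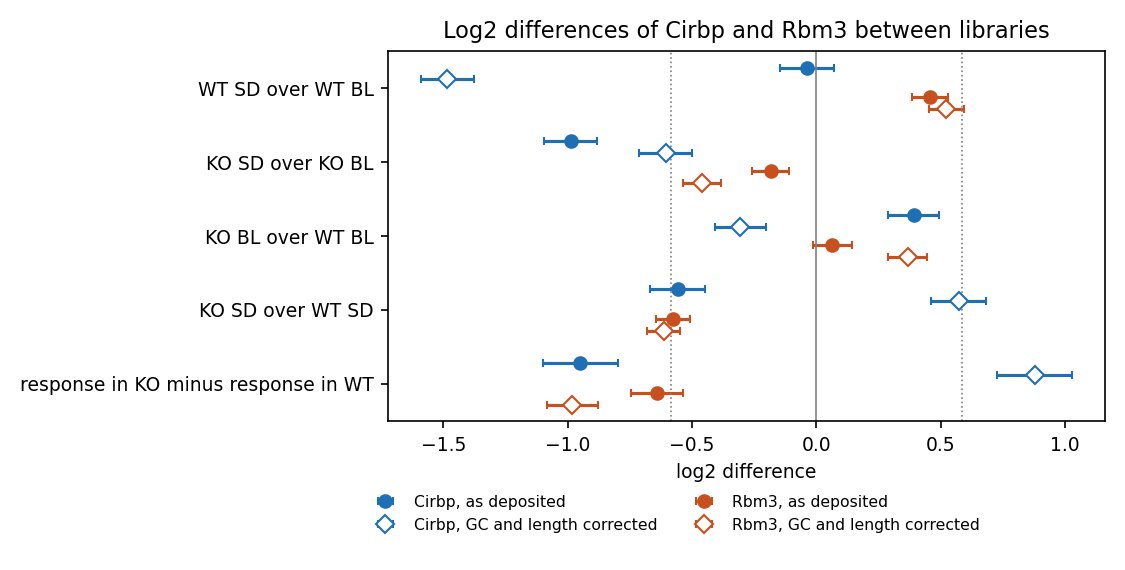
Log2 differences of Cirbp (blue) and Rbm3 (orange) in the 4 comparisons and the difference of the responses to sleep deprivation, as deposited (filled circles) and after GC and length correction (open diamonds), with 95% counting intervals and dotted lines at 1.5-fold. For Cirbp the difference of responses moves from -0.95 to 0.88, and for Rbm3 from -0.64 to -0.98.

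Since both proteins respond to temperature, the balance between their transcripts was also followed. The ratio of Rbm3 to Cirbp normalised counts was 1.92 at wildtype baseline (1.80 to 2.05) and 2.70 after wildtype sleep deprivation (2.54 to 2.87). In knockout it was 1.53 at baseline (1.43 to 1.62) and 2.66 after sleep deprivation (2.49 to 2.85). Both sleep-deprived pools were above both baseline pools, and their intervals overlapped each other. The log2 ratio was 0.49 higher after sleep deprivation in the wildtype pair (0.37 to 0.62) and 0.80 higher in the knockout pair (0.67 to 0.93). Per kilobase of deposited width the ratios were 1.05 and 1.48 in wildtype and 0.836 and 1.46 in knockout, so that Rbm3 was under Cirbp in KO BL. In WT BL the per-kilobase counting intervals overlapped, at 2132 to 2301 for Rbm3 and 2001 to 2224 for Cirbp. This order depends on the widths used, 765 and 1396 bp for Cirbp and Rbm3, where the longest principal transcripts have 1321 and 2792 bp. After the correction the differences of the log2 ratio were 2.01 and 0.15. Over the 4 corrected versions the wildtype value ran from 1.23 to 2.01 and the knockout value from -0.0021, with principal transcripts, to 0.85, with width alone. The higher ratio in KO SD thus did not hold under every correction.

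An additive limma fit over the 4 libraries, with sleep deprivation and genotype as terms and 1 residual degree of freedom, gave the only test the design allows. The sleep deprivation term of Cirbp was -0.51 (SE 0.52, limma adjusted p = 1) at deposited values, with values of -0.037, within counting error, and -0.99 in the pairs. At corrected values it was -1.04 (SE 0.29, limma adjusted p = 0.46 over all genes compared). For Rbm3 the term was 0.14 and 0.031 after the correction, with limma adjusted p-values of 1 and 0.975. The genotype term was -0.083 for Cirbp (corrected 0.13) and -0.26 for Rbm3 (corrected -0.12), with adjusted p-values of 0.999 to 1. The fit called 33 genes higher and 69 lower with sleep deprivation at deposited values, and 1 and 2 at corrected values, so that a fit of this size passed few genes of any kind. The fit takes the difference between genotypes in their response as error, and its standard errors are pooled over genes. At deposited values limma took them wholly from the trend over genes (infinite prior degrees of freedom), and at corrected values the prior degrees of freedom were 5.17.

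Heat shock genes were read next, as the opposite arm of the temperature response. The list held 21 genes, which were chaperones and their cofactors with the heat shock transcription factors Hsf1 and Hsf2. In the wildtype pair 6 were higher and 1 lower by at least 1.5-fold, where 24.5% of all genes were higher and 24.1% lower. The median log2 difference of the list was 0.28 against -0.037 over all genes. The knockout pair had 3 higher and 1 lower, and the list median was 0.0087 against -0.036, where 16.2% of all genes were higher and 16.4% lower. These shares of all genes in the pairs are the background for the deposited counts of the lists that follow too. Hspe1, the mitochondrial co-chaperone, had 2138 normalised counts at baseline and 7609 after sleep deprivation in wildtype, and 1875 and 3283 in knockout. It was higher in both pairs, by 1.83 and 0.81, and by 1.33 and 0.61 after the correction. Hspb1, a small heat shock protein, stood at 120.5, 773, 244 and 327 in the same order, and both sleep-deprived pools were above both baseline pools. Cryab, the crystallin chaperone, was at 1468, 3079, 2478 and 2493, with a difference of 1.07 in the wildtype pair and 0.0087 in the knockout pair. Hspe1 and Cryab share exon positions with neighbouring genes, whose reads may be among theirs. At corrected values 6 of 21 were higher and 0 lower in the wildtype pair, beside 17.5% and 19% of all genes. The knockout pair had 3 and 0, beside 7.54% and 5.56% of all genes, and the list median was 0.15 in each pair.

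Splicing kinases and splicing factors act on splicing that shifts with temperature. Of 16 such genes 6 were higher and 0 lower in the wildtype pair (median 0.47), and 11 and 0 in the knockout pair (median 0.83), where 24.5% and 16.2% of all genes were higher. After the correction 6 were higher and 0 lower in each pair, with medians of 0.46 and 0.52, where 17.5% and 7.54% of all genes were higher. Srsf10, a splicing regulator sensitive to heat, had 1432 normalised counts at baseline and 2698 after sleep deprivation in wildtype, and 1034 and 2705 in knockout. Srsf7, another member of the serine- and arginine-rich family, stood at 1776, 3424, 1386 and 3471. Both were higher in both sleep-deprived pools than in either baseline pool. Clk1, a kinase that phosphorylates these factors, stood at 851, 1056, 1005 and 2429, and its corrected difference was 0.50 in the wildtype and 0.52 in the knockout pair.

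Of 7 genes of the pathway described around RBM3 in the cooled brain, 1 was higher and 1 lower in the wildtype pair (median -0.40; 24.5% and 24.1% of all genes) and 2 and 0 in the knockout pair (median 0.11; 16.2% and 16.4%). Bdnf, the neurotrophin that signals through TrkB, had 1017 and 1825 normalised counts in the wildtype pair and 838 and 2020 in the knockout pair. Bdnf, which shares exon positions with an overlapping gene, was higher after sleep deprivation in both pairs by 0.84 and 1.27 (corrected 1.45 and 0.60). Creb1, a transcription factor activated by neuronal signalling, was higher in the knockout pair by 0.90, of which 0.19 was left after the correction. At corrected values 1 of the 7 was higher and 1 lower in the wildtype pair (median 0.073), beside 17.5% and 19% of all genes. The knockout pair had 1 and 0 (median 0.13), beside 7.54% and 5.56%.

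Transcripts that CIRBP is known to bind differed in direction. Of 3 that it is known to stabilise, 1 was higher and 1 lower in each pair. Txn1, thioredoxin, was higher in WT SD at 4736 normalised counts against 2335, Rpa2, a single-strand DNA-binding protein, was lower in KO SD at 299.5 against 463.5, and the checkpoint kinase gene Atr was lower in WT SD and higher in KO SD. At corrected values 1 was higher in the wildtype pair, where 17.5% of all genes were higher and 19% lower. None of the 3 passed in the knockout pair, where 7.54% of all genes were higher and 5.56% lower. Among the clock genes, 13 in all, the wildtype pair had 2 higher and 4 lower (median -0.11) and the knockout pair 3 and 2 (median 0.079), counts near the share of all genes (24.5% and 24.1%, then 16.2% and 16.4%). Nr1d1, the repressor REV-ERBα, had 1826 normalised counts after sleep deprivation against 2406 in the wildtype pair, and 1541 against 3944 in the knockout pair. Like Cirbp it was lowest in KO SD and highest in KO BL, and its corrected differences were -0.75 and -0.91. Dbp, a clock output factor, was lower in the knockout pair (-1.09, corrected -0.65), and Hlf, a related factor, in the wildtype pair (-1.03, corrected -0.71). The corrected clock counts were 2 and 3 (median -0.19) in the wildtype pair, beside 17.5% and 19% of all genes. In the knockout pair they were 2 and 2 (median 0.010), beside 7.54% and 5.56%. Atr, Nr1d1 and Dbp share exon positions with other genes.

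Of 9 stress granule proteins 0 were higher and 2 lower in the wildtype pair (median -0.19), and 3 and 0 in the knockout pair (median 0.40), beside 24.1% of all genes lower in the former and 16.2% higher in the latter. Tia1 and Tial1, RNA-binding proteins that nucleate the granules, were 1.01 and 0.97 higher in KO SD, and Fmr1, the fragile X protein gene, was -0.76 in the wildtype and 0.79 in the knockout pair. Tia1 and Fmr1 share exon positions with other genes. After the correction none passed in the knockout pair, where 7.54% of all genes were higher and 5.56% lower. In the wildtype pair 1 of the 9 was then higher and 0 lower, beside 17.5% and 19% of all genes. The gene was G3bp1, a core granule protein (0.74, deposited 0.40), which also shares exon positions with another gene. It was named after its value was seen and was not among the 2 lower before.

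**Figure D4:**
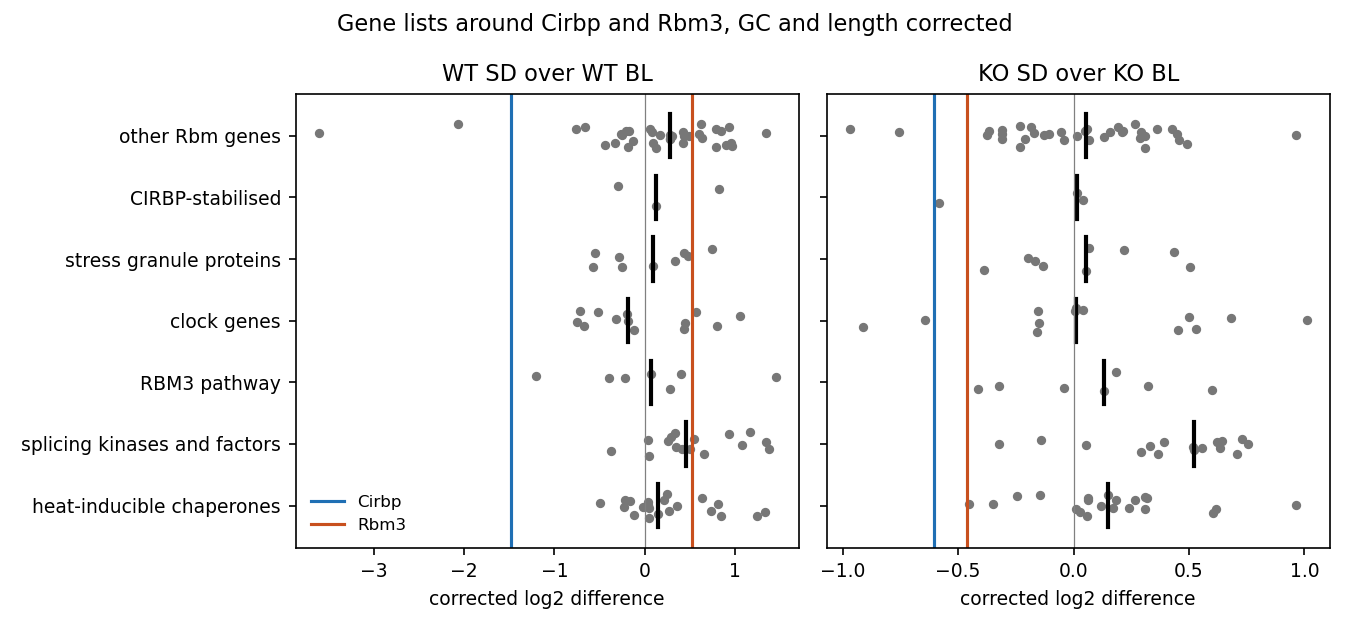
Corrected log2 difference of SD over BL for each gene of the 7 lists (grey points, with black bars at list medians) in the wildtype and knockout pair, on separate horizontal scales. Vertical lines mark Cirbp, at -1.48 and -0.61, and Rbm3, at 0.52 and -0.46. The splicing list has the highest median in each panel, 0.46 and 0.52.

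Rbm3 belongs to a large family of RNA-binding motif genes, of which 44 other symbols had 45 rows in the tables, since Rbm15b has 2, and 36 of these rows passed the filter. In the wildtype pair 6 were higher and 5 lower (median 0.14), and in the knockout pair 8 and 2 (median 0.20), beside 24.5% and 24.1% of all genes in the former and 16.2% and 16.4% in the latter. Thus Rbm3 at -0.18 in the knockout pair lay on the other side of 0 from the median member. After the correction the counts were 11 and 4 (median 0.28) and 1 and 2 (median 0.055). Of all genes 17.5% were then higher and 19% lower in the wildtype pair, and 7.54% and 5.56% in the knockout pair. Rbm41 had 84.4 and 4.19 normalised counts in the wildtype pair and 60.0 and 109.5 in the knockout pair, and its value in WT SD was close to the floor of 3 reads, 3.33 normalised counts. Rbm42 stood at 501, 2397, 1103 and 697, and Rbm19, a factor of ribosome biogenesis, at 215, 53.1, 284 and 163, and both share exon positions with other genes. In each of these 3, WT SD was the library apart.

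The profile of each member over the 4 libraries was last compared with those of 12324 protein-coding genes, by the root mean square difference of centred log2 values. The genes most like Cirbp were Htra3, a serine protease, Ankrd34a, Larp6, an RNA-binding protein that acts on collagen transcripts, Rnd1, a small GTPase, and Prss12, a neuronal protease that shares exon positions with another gene. Their differences from Cirbp were 0.019 to 0.041. By GC fraction Htra3, Ankrd34a, Larp6 and Prss12 lay at 0.565 to 0.601, near the 0.578 of Cirbp, and Rnd1 at 0.515. The part of GC content in this likeness was not tested. The first, Htra3, had 214 and 203 normalised counts in the wildtype pair and 282 and 138 in the knockout pair, the order of Cirbp. Those most like Rbm3 were Lcmt2, Tmem50a, Commd7, Pet112 and Rbmx2, at 0.0083 to 0.024, with Tmem50a at 2795, 3902, 2956 and 2596. Lcmt2 shares exon positions with another gene.

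Neither member was among the genes most like the other. Of the 12324 genes, Rbm3 ranked 2961 by likeness to Cirbp, and Cirbp 4927 by likeness to Rbm3, at a difference of 0.34. At deposited values most genes were thus less like each member than the other member was. At corrected values the ranks were 8747 and 11657, at 0.72, and most genes were more like each member. The corrected values also named other neighbours. For Cirbp they were Mxra8, which shares exon positions with another gene, Ndnf, Scn4b, a sodium channel subunit, Pip5k1b and Zcchc16, and for Rbm3 Trub1, Ccdc51, Supt5, Cep70 and Haghl, of which the last 4 share exon positions. With 4 libraries a profile has few free values, and none of the first 5 genes at deposited values was among the first 5 after the correction.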

How the data were processed

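Each of the 4 deposited tables held 39179 genes with the expression signal of its libraries, per the file headers an estimated, normalised count. Most low values of a library fall on multiples of a single step, taken as the value of 1 read. The submitters' processing notes name RSEM 1.2.19, edgeR and mm10 (GRCm38), and strand handling is not given in the sources used here. The log2 ratios, p-values and false discovery rates are the authors' own, with signs turned round here to give sleep deprivation over baseline and knockout over wildtype. The GC fraction and transcript width are as deposited by the authors.

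The design had assumed counts. The values are not whole numbers, so limma 3.58.1 (R 4.3.3) was run on log2(value + 1) for the 13550 genes whose mean reached 50, and count models were not used. Fold changes are on this scale. Reads were estimated by dividing by the value of 1 read in each library (0.878 to 1.25), and of low values 60.5% to 71.0% were whole steps within 0.03, too few to recover counts. Intervals, at 95%, are exact Poisson for levels and exact binomial for differences and for the ratio within a library. They are normal on the log scale for differences of the log2 ratio and differences of responses. They cover counting error only. The correction subtracted loess fits (span 0.3, degree 2) on GC content, then on log10 width, of each library minus the mean of the 4. A version with GENCODE M21 principal transcripts (94.4% of genes had one, the others kept deposited values) and 3 others were added after the values were seen. A version fitted on GC content and width together was also run, and its values were not compared. The fit and the correction were tested on simulated data with a linear trend on GC content. Those data held no width trend and no library apart, so the removal of a width trend was not tested.

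Named genes were the members, the 5 most alike per member with a symbol of their own, up to 3 per list with the largest difference in a sleep deprivation pair, Kcnma1 and exon-overlapping neighbours. Of the genes this rule named, 1 is not reported here. The members and lists were chosen with earlier results of these data known. Alternatives were another scaling, pseudocount, filter and per-length values.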

Additional observations from a re-analysis of the deposited data

Results flagged for a closer look

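Rbm3 was higher in the wildtype pair and lower in the knockout pair, a difference of responses of -0.64 on the log2 scale that was not tested, since each group is 1 library. Of the other genes in the lists, 7 were at least 1.5-fold apart in opposite directions in the pairs, also untested. The response in KO minus that in WT was -1.52 for the chaperone gene Hspa1a, whose near-identical copy Hspa1b may share its reads, 1.88 for Clock, 1.55 for Fmr1, 1.26 for Atr, 4.90 for Rbm41, -2.92 for Rbm42 and 1.54 for Rbm26. Hspa1a, Fmr1, Atr, Rbm42 and Rbm26 share exon positions with other genes. At corrected values none of the 7 passed 1.5-fold in opposite directions.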

How the results depend on the processing

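Values are log2 differences in the order WT SD over WT BL, KO SD over KO BL, KO over WT at baseline, KO over WT after sleep deprivation, and response in KO minus response in WT. GC and length correction moved Cirbp to -1.48, -0.61, -0.31, 0.57 and 0.88, the last 3 with the opposite sign, and the genotype term of its additive fit to 0.13, also of opposite sign. It moved Rbm3 to -0.46 in KO SD over KO BL, 0.37 at baseline and -0.98 for the responses, and its other differences stayed within their counting intervals. GC alone gave -0.51, -0.47, -0.22, -0.18 and 0.039 for Cirbp and 0.72, -0.46, 0.39, -0.78 and -1.18 for Rbm3. Length alone gave Cirbp -1.09 in the wildtype pair, 0.16 at baseline, 0.28 after sleep deprivation and 0.13 for the responses, and Rbm3 0.23, -0.025, -0.37 and -0.34 for the same 4. Principal transcripts gave -0.78, -0.78, 0.12, 0.13 and 0.00089 for Cirbp and 0.80, -0.79, 0.62, -0.97 and -1.59 for Rbm3. Corrected without WT SD, the knockout pair and the baseline comparison were at -0.60 and -0.31 for Cirbp and -0.47 and 0.37 for Rbm3. The cause of these shifts, beyond the covariates fitted, was not tested.

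Total scaling moved Cirbp to -0.20 in the wildtype pair, and Rbm3 to 0.29 and -0.27 in the pairs and -0.51 between sleep-deprived pools. Per-length values, scaled to equal totals, moved Cirbp to -0.46 and -1.12 in the pairs, -0.32 between sleep-deprived pools and -0.66 for the responses, and Rbm3 to 0.033, -0.32, -0.34 and -0.35. Median scaling and a pseudocount of 10 kept each member within its counting interval. The sign of Cirbp in the knockout pair was negative in all 10 settings compared, and Rbm3 was positive in the wildtype pair in all 9 and negative in the knockout pair in all 10.

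Without the filter the genes past 1.5-fold numbered 12542, 9669, 8608 and 11267 in the 4 comparisons, against 6580, 4418, 3671 and 5534. Correction left 1775 in the knockout pair and 919 at baseline. No additive term of a member passed an adjusted p of 0.05 under the settings run. No paired analysis was possible because the groups share no more than 1 replicate number. The additive fit, with genotype as a term, sets SD against BL within genotypes, and leaving out a replicate would remove its group. Counting intervals do not cover the spread between animals or pools, which limits every difference given.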
